A study of Mus musculus with 8 samples.

Results

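The genes described here are *Kcnj10*, *Kcnj16*, *Slc12a7* and *Atp1b1*, which encode potassium transport proteins discussed for cochlear supporting cells. They were chosen by symbol, each matched 1 Ensembl identifier, and together they make 4 of the 36536 genes with counts. The samples were cells sorted by fluorescence from freshly dissected, untreated cochleas of mice at postnatal day 1 (P1) or day 6 (P6). Per the methods of the study, the stria vascularis and lateral wall were taken off at P1 but removed only in part at P6. Age and dissection therefore cannot be told apart in comparisons of P6 with P1. Every group carried the same *Lfng-GFP* BAC transgene (B6;FVB-Tg(Lfng-EGFP)HM340Gsat/Mmucd), in which regulatory sequence of *Lfng* drives the fluorescent protein in most, but not all, supporting cell types. The 4 groups were P1 GFP+, P1 GFP-, P6 GFP+ and P6 GFP- cells, with 2 replicate libraries each. GFP+ cells were the brightest sorted fraction, and GFP- cells were the unlabeled mixture of other cochlear cells. The sources used here do not state whether replicates came from separate pools of animals, so the p-values measure the spread between these libraries, which may be technical.

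Hair cells are driven by potassium that enters from the endolymph and leaves at their base, where the supporting cells around them take it up. *Kcnj10* encodes Kir4.1 and *Kcnj16* encodes Kir5.1, inward rectifier subunits that can assemble into a shared channel, and *Slc12a7* encodes KCC4, a potassium-chloride cotransporter of Deiters' cells whose loss deafens mice. *Atp1b1* encodes the β1 subunit of the Na,K-ATPase, the pump that keeps potassium high inside nearly all cells and that is very abundant in the stria vascularis. Kir4.1 is also known from the intermediate cells of the stria and from satellite glia, and both of those cell types occur in the cochlea.

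In the NCBIM37 (mm9) annotation, *Kcnj10* (ENSMUSG00000044708) lies on the plus strand of chromosome 1 from 174271341 to 174304216, with 2 exons after transcripts are merged. *Kcnj16* (ENSMUSG00000051497) lies on the plus strand of chromosome 11 from 110829347 to 110889282, with 4 transcripts and 5 merged exons. *Slc12a7* (ENSMUSG00000017756) spans 73870542 to 73954191 on the plus strand of chromosome 13, with 26 merged exons, and *Atp1b1* (ENSMUSG00000026576) spans 166367398 to 166388486 on the minus strand of chromosome 1, with 6. No other annotated gene overlaps any of them, on either strand.

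The sequences before the starts of *Kcnj10* and *Kcnj16* are shown because these genes encode partner subunits and had the largest fold rises with age of the 4. Each is the 250 bases before a transcript start in RefSeq (GRCm38.p6), read 5′ to 3′ on the strand of the gene. The *Kcnj10* window is chr1:172340960-172341209 and the *Kcnj16* window, before the first of its 4 listed starts, is chr11:110967783-110968032. Capitals mark 4 motifs searched on both strands, which are the TATA box TATAAA, the sequence CCAAT, the GC box GGGCGG and the hexamer AGGTCA of nuclear receptor sites. No match overlaps another in these windows.
*Kcnj10*: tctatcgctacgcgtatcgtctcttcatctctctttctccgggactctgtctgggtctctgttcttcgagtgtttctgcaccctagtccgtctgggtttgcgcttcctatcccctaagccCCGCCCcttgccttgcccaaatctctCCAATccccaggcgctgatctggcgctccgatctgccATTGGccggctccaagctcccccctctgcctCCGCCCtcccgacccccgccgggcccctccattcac
*Kcnj16*: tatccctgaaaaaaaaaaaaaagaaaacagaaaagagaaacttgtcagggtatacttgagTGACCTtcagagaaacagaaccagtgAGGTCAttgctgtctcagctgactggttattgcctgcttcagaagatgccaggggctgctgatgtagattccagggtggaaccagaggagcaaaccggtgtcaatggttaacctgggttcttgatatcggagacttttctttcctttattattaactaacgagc
The *Kcnj10* window was 62% G or C with 17 CG dinucleotides, and held CCAAT once on each strand and GGGCGG 2 times on the reverse strand. The *Kcnj16* window was 42.8% G or C with 3 CG dinucleotides, and held AGGTCA once on each strand and none of the other motifs. For comparison, the median over 32851 RefSeq windows was 52.4% G or C and 6 CG dinucleotides. CCAAT was found in 33.8% of those windows, GGGCGG in 32.7%, AGGTCA in 14.0% and TATAAA in 12.4%. The other 3 *Kcnj16* windows held 7, 4 and 1 CG dinucleotides, and none of these 3 held AGGTCA. Of the 4 motifs, the window of start 2 held none, that of start 3 held TATAAA once, and that of start 4 held CCAAT and GGGCGG once each. The counts do not tell which start was used. Both windows before the *Slc12a7* starts, at 63.6% and 68.8% G or C, held GGGCGG, as did that of *Atp1b1*, at 70.4%. The *Slc12a7* windows overlap for most of their length and share some of these sites. The window of *Slc12a7* start 2 also held AGGTCA once, and that of *Atp1b1* held CCAAT once, on the reverse strand. These matches describe letters and were not tested as binding sites.

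The libraries held 17769024 to 67695039 counts on genes, the fewest in P6 GFP+ replicate 1. All 8 supporting cell markers, *Lfng*, *Sox2*, *Prox1*, *Fgfr3*, *Hes5*, *Lgr5*, *Cdkn1b* and *Jag1*, were higher in GFP+ than in GFP- cells at both ages. Their summed level was 5936 to 9407 counts per 1000000 (CPM) in GFP+ libraries and 264 to 398 CPM in GFP- libraries. P6 GFP+ replicate 2 stood apart from replicate 1, with a supporting cell sum lower by 0.42 on the log2 scale and sums of the other 10 cell type lists higher by 0.31 to 2.77. Markers of spiral ligament fibrocytes and mesenchyme, for example, summed to 1024 CPM in replicate 1 and 3545 CPM in replicate 2, against 20918 and 22200 CPM in P6 GFP- cells. The 4 genes themselves differed between these libraries by 0.31 (*Kcnj10*), -0.07 (*Kcnj16*), 0.06 (*Slc12a7*) and -0.07 (*Atp1b1*) on the same scale. In bulk libraries such as these, fewer cells of a type and less RNA per cell cannot be told apart.

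**Figure D1:**
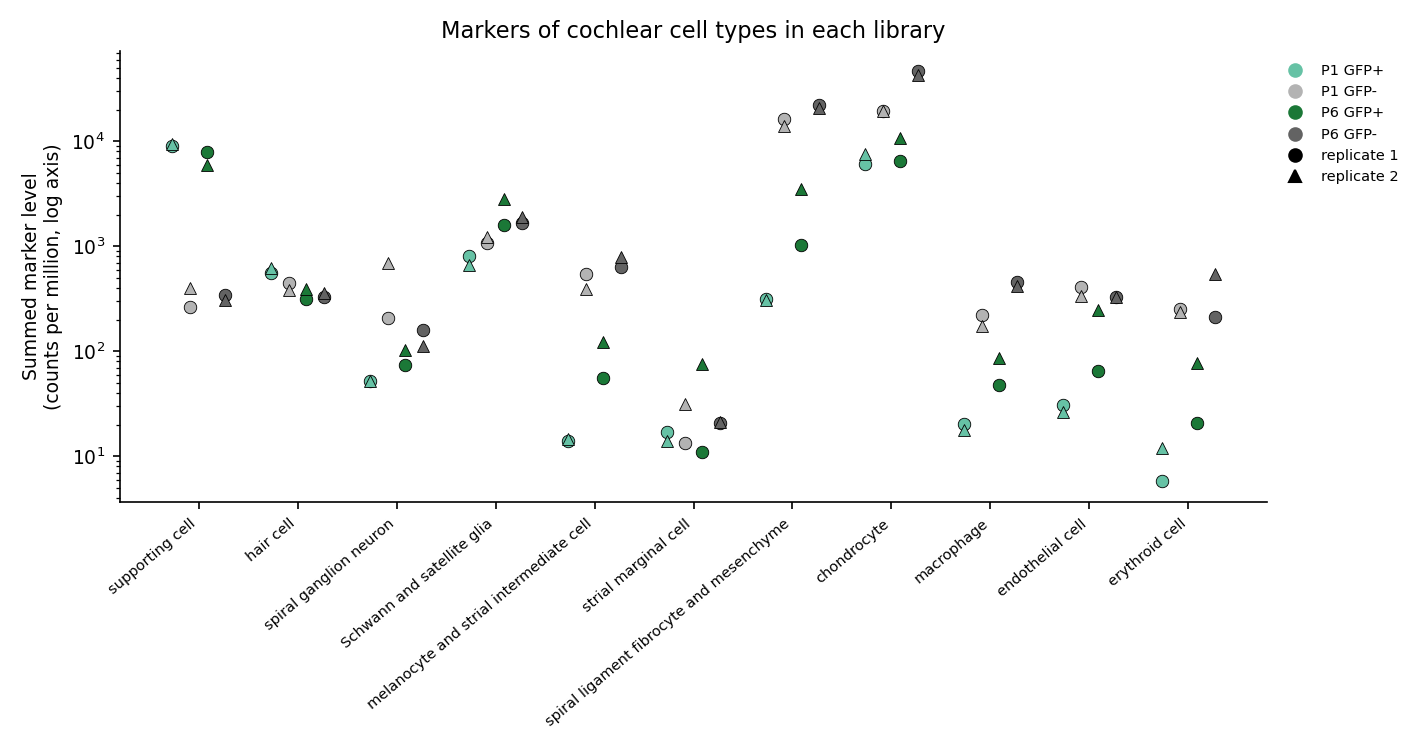
Summed level of marker genes of 11 cochlear cell types (x axis) in each library, in counts per 1000000 on a log axis, colored by group, with circles for replicate 1 and triangles for replicate 2. Supporting cell markers sit at 5936 CPM or more in the GFP+ libraries and at 398 CPM or less in the GFP- libraries, and for most other types P6 GFP+ replicate 2 sits above replicate 1.

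The channels and the cotransporter were higher in GFP+ than in GFP- cells at both ages, and all 4 genes were higher in P6 than in P1 GFP+ cells. At P1, 3 of the 4 genes passed the test as higher in GFP+ cells (p and adjusted p below 0.01), against 16.6% of the 18682 genes tested. At P6 the same 3 genes passed, against 7.72% of 18294 genes. Between the ages, 4 of 4 genes rose in GFP+ cells, against 2.86% of 17213 genes, and *Kcnj10* and *Kcnj16* rose in GFP- cells, against 5.04% of 18920 genes. Markers of other cells moved with age in GFP+ libraries too, with a median log2 fold change of 3.63 for melanocytes and strial intermediate cells, 2.91 for fibrocytes and mesenchyme, 2.89 for erythroid cells, 2.54 for endothelium, 2.43 for macrophages, 1.50 for strial marginal cells, 1.45 for glia, 0.90 for spiral ganglion neurons and 0.46 for chondrocytes. In each of these 9 lists at most 1 gene passed. The medians of supporting cell and hair cell markers were -0.58 and -0.66, with 2 of 8 genes called lower in each list. The part of other cells, or of the dissection that differed between the ages, in the rise of the 4 genes was not tested. The comparisons share libraries, and the 4 genes were chosen with earlier results of these libraries known, so these counts are given as a description. *Atp1b1* did not pass between the fractions at either age, and no difference between supporting cells and the other cells was called for it.

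**Figure D2:**
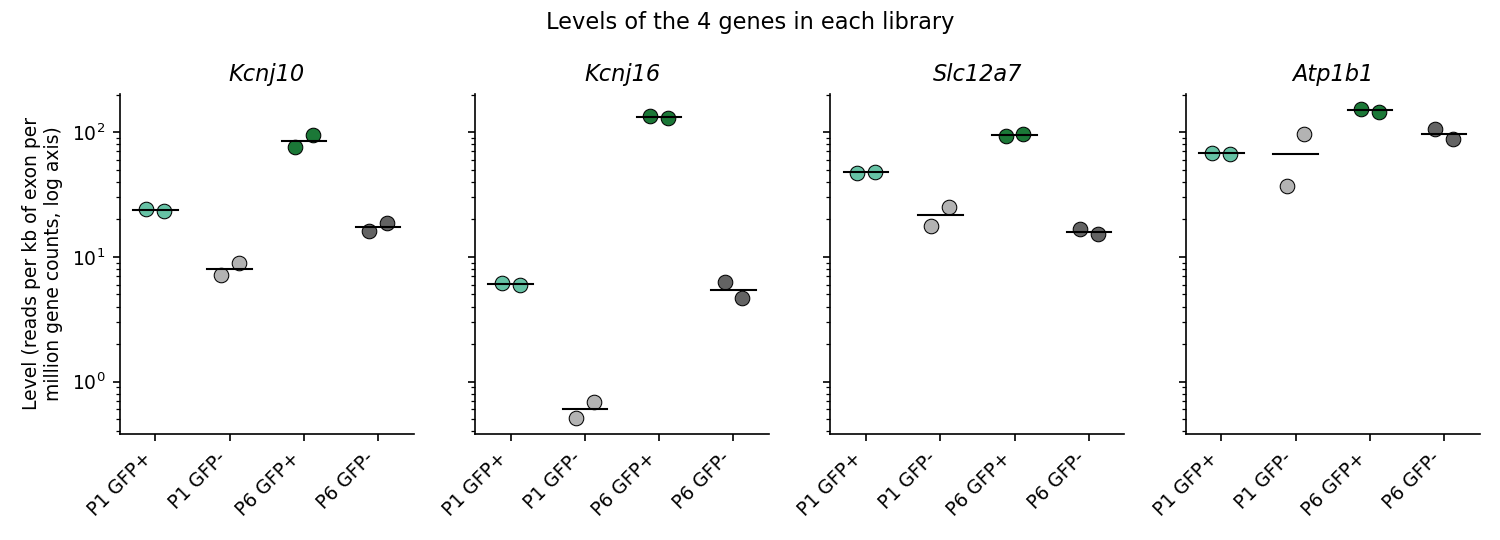
Level of each gene in each of the 8 libraries, in reads per kilobase of exon per 1000000 gene counts on a log axis, with 1 point per library and a line at the mean of the 2 replicates. *Kcnj16* runs from 0.510 in P1 GFP- replicate 1 to 136 in P6 GFP+ replicate 1, while *Atp1b1* stays between 36.9 and 153.

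*Kcnj10*, the Kir4.1 gene, was highest in P6 GFP+ cells. Its level per length, in reads per kilobase of exon per 1000000 gene counts (RPKM), was 24.0 and 23.2 in P1 GFP+ libraries, 7.17 and 8.89 in P1 GFP-, 76.5 and 94.8 in P6 GFP+, and 16.1 and 18.6 in P6 GFP-. The replicates of the 4 groups did not overlap, and the order of the group means was P6 GFP+ (85.6 ± 12.9 RPKM, SD, n = 2), P1 GFP+ (23.6 ± 0.569), P6 GFP- (17.4 ± 1.75) and P1 GFP- (8.03 ± 1.21). The P1 level was 3.16-fold higher in GFP+ cells (log2 1.66 ± 0.12, SE, p-adj = 0.000143 by edgeR's quasi-likelihood test). The ratio of the fractions at P6 was 4.90-fold (log2 2.29 ± 0.20, SE, p-adj = 0.00169 by edgeR). From P1 to P6 the gene rose 3.85-fold in GFP+ cells (log2 1.95 ± 0.15, SE, p-adj = 0.00328 by edgeR). It also rose 2.47-fold in GFP- cells (log2 1.30 ± 0.14, SE, p-adj = 0.00155 by edgeR). The ratio of the fractions differed between the ages by a log2 of 0.62, with a 95% interval of 0.12 to 1.13, and did not pass (p-adj = 0.147 by edgeR).

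*Kcnj10* was also well detected in the GFP- mixture, where its level in CPM was 34.0% of the GFP+ level at P1 and 20.3% at P6. The 8 supporting cell markers were at 0.344% to 12.7% at P1 and 0.568% to 17.8% at P6. Markers of melanocytes and strial intermediate cells summed to 394 and 545 CPM in P1 GFP- and 634 and 796 CPM in P6 GFP- libraries, and those of Schwann and satellite glia to 1085 and 1214 CPM and then 1660 and 1886 CPM. Both sums therefore moved the same way as *Kcnj10* in GFP- cells, and their part in its rise was not tested. In the GFP+ libraries the melanocyte sum was 13.9 and 14.6 CPM at P1 and 55.5 and 123 CPM at P6, and the glia sum was 811 and 669 CPM at P1 and 1602 and 2824 CPM at P6. Both were higher at P6 and in P6 replicate 2, as *Kcnj10* was, and their part in its rise in GFP+ cells was not tested. Fits without a library leave 1 library in a group, and the numbers of calls over all genes, given at the end, moved widely in them. A call lost in such a fit is therefore not particular to the gene. The P6 difference between the fractions lost its call without P6 GFP- replicate 1 (2.25, p-adj = 0.0181 by edgeR) or replicate 2 (2.38, p-adj = 0.0263). The rise in GFP+ cells did so without P1 GFP+ replicate 2 (1.90, p-adj = 0.0256), and the rise in GFP- cells without P6 GFP- replicate 1 (1.38, p-adj = 0.0108) or 2 (1.24, p-adj = 0.0134).

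*Kcnj16*, the Kir5.1 gene, had the steepest change of the 4 with age. It measured 6.12 and 5.98 RPKM in P1 GFP+ libraries, 0.510 and 0.688 RPKM in P1 GFP-, 136 and 129 RPKM in P6 GFP+, and 6.24 and 4.64 RPKM in P6 GFP-. P6 GFP+ libraries stood far above all others, P1 GFP- libraries stood below all others, and P1 GFP+ and P6 GFP- cells overlapped. The P1 GFP- values rest on 76 and 171 counts. In GFP+ cells *Kcnj16* rose 23.3-fold from P1 to P6 (log2 4.54 ± 0.15, SE, p-adj = 0.00156 by edgeR), with the 4th smallest p and the 90th largest rise of the genes tested. GFP- cells showed a 10.3-fold rise from a lower level (log2 3.37 ± 0.25, SE, p-adj = 0.000546 by edgeR). The fractions differed 10.8-fold at P1 (log2 3.43 ± 0.19, SE, p-adj = 5.45e-05 by edgeR) and 24.2-fold at P6 (log2 4.60 ± 0.25, SE, p-adj = 0.000719 by edgeR).

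The *Kcnj16* level of GFP- cells was 9.90% of the GFP+ level at P1 and 4.11% at P6, within the range of the supporting cell markers given above. The supporting cell marker sum in GFP- cells was 264 and 398 CPM at P1 and 341 and 310 CPM at P6, so its replicates overlapped between the ages. The part of supporting cells in the *Kcnj16* counts of GFP- libraries was not tested. The ratio of the fractions was larger at P6 by a log2 of 1.16 (95% interval 0.50 to 1.81), which did not pass with edgeR (p-adj = 0.0535). It passed with DESeq2 (1.18, p-adj = 0.00568) and in edgeR without the filter on low counts (1.18, p-adj = 0.000163). Of the separate comparisons, the P6 difference between fractions lost its call without P6 GFP- replicate 2 (4.38, p-adj = 0.0124 by edgeR), and the others passed without each library in turn.

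In GFP+ cells the order of the Kir4.1 and Kir5.1 transcripts, compared by length, was reversed between the ages. Per length, *Kcnj16* was 0.255 and 0.258 of *Kcnj10* in GFP+ replicates at P1 and 1.77 and 1.36 of it at P6. In GFP- cells the ratio was 0.0710 and 0.0774 at P1 and 0.386 and 0.249 at P6, so *Kcnj10* was the higher of the pair in every library outside P6 GFP+. These ratios are a description of RPKM levels and say nothing of protein or of assembled channels. They also depend on the exon lengths used. In CPM, without division by length, *Kcnj16* was above *Kcnj10* in P6 GFP+ replicate 1 (534 against 414 CPM). In P6 GFP+ replicate 2 it was not (508 against 512 CPM).

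**Figure D3:**
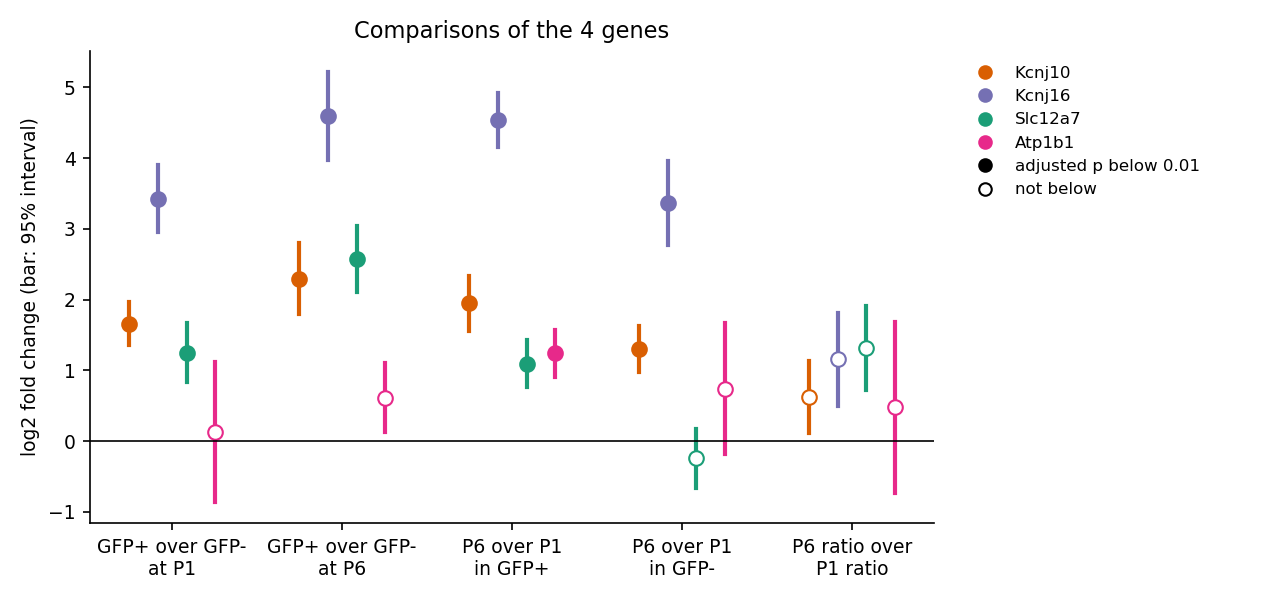
Log2 fold change of each gene in the 4 comparisons and in the P6 ratio over the P1 ratio (x axis), with the 95% interval from edgeR as a bar and filled points where the adjusted p was below 0.01. *Kcnj16* has the largest value in each of the 4 comparisons, from 3.37 to 4.60, and no gene passes in the difference of the ratios.

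*Slc12a7*, the KCC4 gene, was higher in GFP+ cells and changed with age in that fraction. The level was 47.4 and 47.9 RPKM in P1 GFP+ libraries, 17.8 and 25.3 RPKM in P1 GFP-, 93.5 and 97.4 RPKM in P6 GFP+, and 16.7 and 15.1 RPKM in P6 GFP-. No groups overlapped, although the GFP- replicates at P1 differed more from each other than the P6 GFP- mean did from the lower of them. The fractions differed 2.38-fold at P1 (log2 1.25 ± 0.17, SE, p-adj = 0.00154 by edgeR). At P6 they differed 5.97-fold (log2 2.58 ± 0.19, SE, p-adj = 0.00108 by edgeR). In GFP+ cells the gene rose 2.13-fold with age (log2 1.09 ± 0.13, SE, p-adj = 0.00796 by edgeR). In GFP- cells the log2 difference was -0.24 (95% interval -0.65 to 0.17, p-adj = 0.365 by edgeR).

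The P6 ratio of the fractions exceeded the P1 ratio for *Slc12a7* by a log2 of 1.31 (95% interval 0.72 to 1.90). Over all genes, 1.93% passed this test in either direction, and of the 4 genes 0 passed with edgeR, 3 had an unadjusted p below 0.05 and 2 passed with DESeq2. Of the 19233 genes tested, 4085 had an unadjusted p below 0.05, and DESeq2 called 891 higher and 548 lower. The *Slc12a7* difference did not pass at 0.01 with edgeR (p-adj = 0.0246), but did with DESeq2 (1.34, p-adj = 0.000151) and without the filter on low counts (1.33, p-adj = 3.79e-06 by edgeR). The rise in GFP+ cells was close to the threshold, and the call was lost with library totals in place of TMM (1.00, p-adj = 0.0104 by edgeR) and without P1 GFP+ replicate 1 (1.12, p-adj = 0.0837) or 2 (1.07, p-adj = 0.137). The difference at P1 lost its call without P1 GFP+ replicate 1 (1.24, p-adj = 0.0106 by edgeR), and that at P6 without P6 GFP- replicate 1 (2.71, p-adj = 0.0108) or 2 (2.49, p-adj = 0.0229). In GFP- cells, leaving out P1 GFP- replicate 2 turned the age difference to 0.02 (p-adj = 0.949 by edgeR).

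*Atp1b1*, the β1 subunit gene of the pump, was abundant in both fractions. It measured 68.1 and 67.1 RPKM in P1 GFP+ libraries, 36.9 and 96.1 RPKM in P1 GFP-, 153 and 146 RPKM in P6 GFP+, and 107 and 87.5 RPKM in P6 GFP-. The P1 GFP+ values fell between those of the P1 GFP- replicates, which lay far apart, and the P6 fractions did not overlap. Its rise in GFP+ cells was 2.36-fold (log2 1.24 ± 0.13, SE, p-adj = 0.00605 by edgeR). That call was lost when all 8 libraries entered the fit (1.25, p-adj = 0.0426 by edgeR) and without P1 GFP+ replicate 1 (1.28, p-adj = 0.0336) or 2 (1.20, p-adj = 0.0901).

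Between the fractions, the log2 difference of *Atp1b1* was 0.13 at P1 (95% interval -0.86 to 1.11, p-adj = 0.810 by edgeR) and 0.62 at P6 (95% interval 0.13 to 1.10, p-adj = 0.0593 by edgeR). These intervals do not show equal levels. At P1 the direction depended on 1 library, with a log2 of -0.43 without P1 GFP- replicate 1 (p-adj = 0.000283 by edgeR) and 0.96 without P1 GFP- replicate 2 (p-adj = 2.45e-10). At P6 the difference passed without P6 GFP+ replicate 2 (0.68, p-adj = 0.00501 by edgeR). P1 GFP- replicate 2, which was high for *Atp1b1*, also had more of the spiral ganglion neuron markers, 694 CPM against 210 CPM in replicate 1, and more of the strial marginal cell markers, 31.6 CPM against 13.5 CPM. Its sums for supporting cells (398 against 264 CPM), glia (1214 against 1085 CPM) and chondrocytes were higher too, as were *Kcnj10*, *Kcnj16* and *Slc12a7*. The sums of the other cell type lists were lower. The part of any of these cells in the *Atp1b1* values was not tested. In GFP- cells the age difference was 0.74 (95% interval -0.18 to 1.66, p-adj = 0.225 by edgeR), and it passed without P1 GFP- replicate 2 (1.57, p-adj = 1.66e-06) and without the filter on low counts (0.77, p-adj = 3.37e-07). The difference between the ages in the fraction ratio was 0.48 (95% interval -0.73 to 1.68, p-adj = 0.660 by edgeR).

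Compared per length in RPKM, each of the 4 genes led its family in the GFP+ fraction of P1, of P6 or of both ages. This was not particular to GFP+ cells for *Kcnj10*, which also led the Kir genes in GFP- cells at both ages. *Kcnj10* made up 64.1% ± 2.65 (SD, n = 2) of the summed level of the 15 Kir genes in P1 GFP+ libraries and 37.1% ± 4.09 in those of P6. *Kcnj16* made up 16.4% ± 0.550 and then 57.6% ± 4.42. The pair thus held 82.8% and 78.2% of the Kir level of GFP+ replicates at P1 and 94.9% and 94.5% at P6, while the summed level went from 36.9 to 230 RPKM. In GFP- cells the pair held 37.8% and 45.4% at P1 and 54.7% and 52.1% at P6. Most of that was *Kcnj10*, at 38.7% on average at P1 and 40.6% at P6, while *Kcnj16* was at 2.88% and 12.8%. By mean share at both ages, *Kcnj13* (24.5% and 22.0%) and *Kcnj8*, a channel gene of vascular mural cells (18.9% and 15.1%), stood between *Kcnj10* and *Kcnj16*.

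*Slc12a7* accounted for 58.8% ± 0.281 of the level of the 4 potassium-chloride cotransporters in P1 GFP+ libraries and for 79.9% ± 6.12 in those of P6. In GFP- cells the *Slc12a7* share was 36.7% ± 7.71 at P1, beside *Slc12a4*, the widely expressed KCC1 gene, at 35.0%. The P1 GFP- replicates differed in which of these genes was higher. At P6 the *Slc12a7* share in GFP- cells was 17.3% ± 2.45, and *Slc12a4* led with 45.3%. The shares of *Slc12a7* in GFP+ and GFP- libraries did not overlap at either age.

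*Atp1b1* was the leading β subunit gene in GFP+ cells, with 44.4% ± 0.0799 of the β subunit level at P1 and 47.8% ± 1.98 at P6. In GFP- cells it held 40.1% ± 16.8 and 40.8% ± 2.57, beside *Atp1b3* at 47.8% and 47.6%. *Atp1b2*, the β2 gene, was at 30.7% and 27.0% in GFP+ and 12.1% and 11.6% in GFP- cells.

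**Figure D4:**
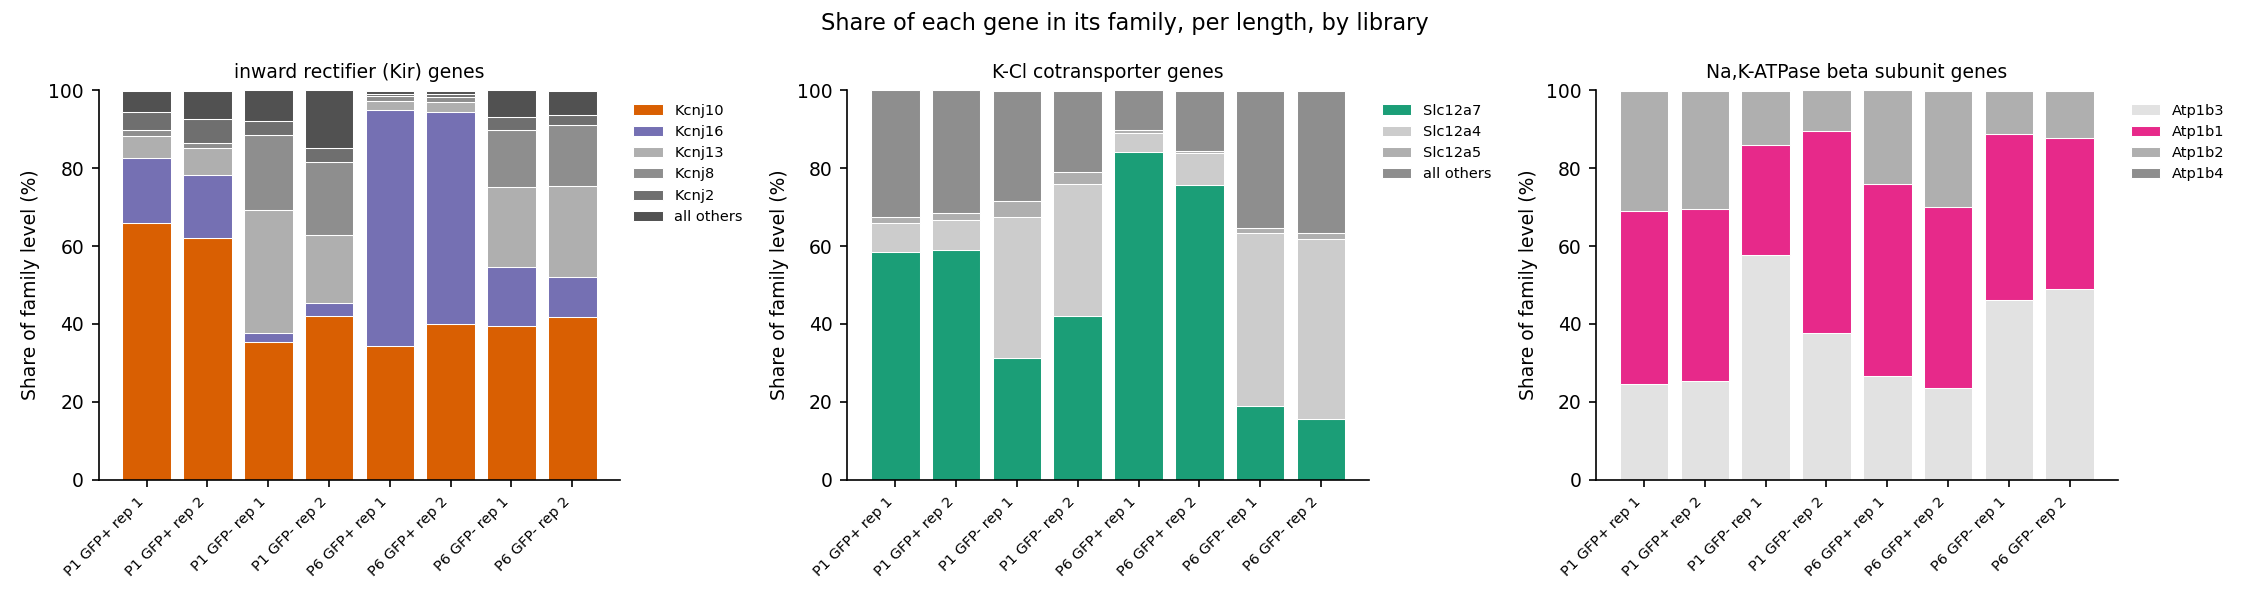
Share of each gene in the summed level of its family, per length and in percent, as stacked bars for the 8 libraries (rep 1 and rep 2 are the replicates), with the 4 genes described here in color and the other members in grey. *Kcnj16* is 16.4% of the Kir level in P1 GFP+ and 57.6% in P6 GFP+ cells on average, and *Slc12a7* is 79.9% of the potassium-chloride cotransporter level in P6 GFP+ cells.

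The relatives of the 4 genes were compared between the fractions by list, with no test of a difference from the 4 genes. Of the other Kir genes, 10 were tested at P1, where *Kcnj2*, a strong rectifier (log2 fold change 1.43), passed as higher in GFP+ cells and *Kcnj8* (-2.74) and *Kcnj3*, a G protein-gated channel gene, as lower, and 0 of 10 passed at P6 with edgeR, against 6 with an unadjusted p below 0.05 and 2 with DESeq2. The list medians were 0.05 and -0.43 on the log2 scale, against 0.01 and -0.02 over all genes tested. Over all 18294 genes tested at P6, 8216 had an unadjusted p below 0.05, and DESeq2 called 2323 higher and 2568 lower. These are the background for the P6 counts of the same kind below, which are given as a description. Of the 8 other cation-chloride cotransporters, 2 passed as higher in GFP+ cells at P1, among them *Slc12a9* (0.74), and *Slc12a4* (-1.65) and *Slc12a2* (-1.26), the NKCC1 gene, were lower. At P6 *Slc12a4* (-2.40) was lower and the other 7 did not pass. The medians of that list were -0.77 and -1.34.

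Among 13 tested pump subunits and FXYD regulators, the small membrane proteins that tune the Na,K-ATPase, 1 was higher and 8 were lower in GFP+ cells at P1, with a median of -1.64. *Atp1b2* (1.44) was the gene that was higher, and *Fxyd6* (-3.85) was among those that were lower. At P6, *Fxyd3* (2.55) and *Atp1b2* (1.61) were higher and *Fxyd1* (-1.70) was lower, with a median of -1.28. Of 7 genes of the WNK-SPAK pathway, kinases that set the phosphorylation of the cotransporters and their MO25 scaffold proteins (*Cab39* and *Cab39l*), *Wnk2* (0.79) and *Wnk1* (0.59) were higher at P1 and 0 of 7 passed at P6 with edgeR, against 2 with an unadjusted p below 0.05 and 1 with DESeq2. The list medians were 0.06 and 0.30.

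The 10 genes of the dystrophin complex and scaffold that anchor Kir4.1 in glia divided at P1. *Aqp4*, the water channel gene that accompanies Kir4.1 in glia (5.10), *Dtna* (2.47), *Sntb1* (1.14) and *Dmd* were higher in GFP+ cells, and 4 were lower, among them *Sntb2* (-1.13), *Magi1* (-0.87) and *Dlg1*, with a median of -0.26. None of the 10 passed with edgeR at P6, against 6 with an unadjusted p below 0.05 and 3 with DESeq2, and the median was -0.43. The 11 other genes of potassium cycling included *Gjb2* and *Gjb6*, the connexin genes of the supporting cell gap junctions. Both had higher levels with GFP than without at P1 (1.84 and 1.87) and at P6 (2.07 and 2.47). *Gja1* was lower at P1 (-3.29) and *Kcnma1* at P6 (-3.52), and the list medians were -0.29 and 1.10. Hair cell markers, of which 5 of 8 were higher in GFP+ cells at both ages, had a median log2 fold change of 2.54 at P1 and 3.37 at P6. Their summed levels, which the most abundant genes dominate, were 315 to 616 CPM in GFP+ and 329 to 444 CPM in GFP- libraries. The part of hair cells in the GFP+ levels of the 4 genes was not tested.

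Over all genes tested, 20.7% at P1 and 5.19% at P6 were lower in GFP+ cells. Of 17 calls on listed genes with values above at P1, 5 were lost without P1 GFP+ replicate 1 or 2, those of *Kcnj2*, *Slc12a9*, *Slc12a2*, *Wnk1* and *Sntb2*, with adjusted p up to 0.0585 (*Slc12a2*, edgeR). At P6, all of the calls on listed genes with values above were lost without either P6 GFP- replicate. Such fits leave 1 library in a group, and over all genes, too, fewer were called without each of these libraries. The losses are thus not particular to the listed genes. The directions held in all of these fits, but *Aqp4* at P1 went to 5.77 without P1 GFP- replicate 2, and *Kcnma1* at P6 to -2.83 without P6 GFP+ replicate 1 and -5.07 without replicate 2.

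**Figure D5:**
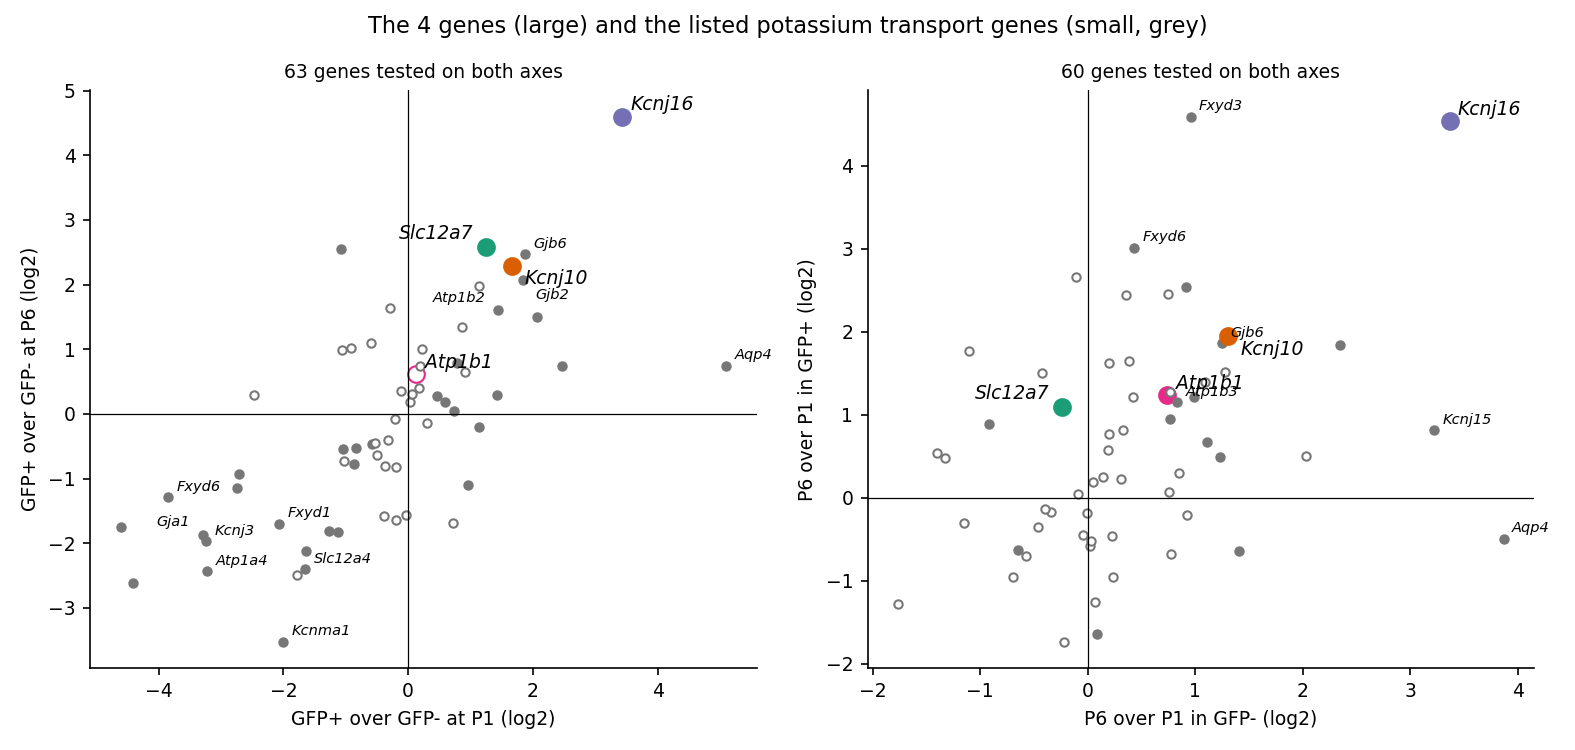
Log2 fold changes of the 4 genes (large points) and of the listed potassium transport genes (small points), with GFP+ over GFP- at P1 against P6 on the left and P6 over P1 in GFP- against GFP+ cells on the right, filled where either comparison passed. The axes of each panel come from different libraries, and *Kcnj16* lies farthest up and right among the genes that passed on both axes of a panel.

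With age, the other Kir genes had 1 call in each fraction, *Kcnj8* in GFP+ cells (log2 fold change 2.54, of 9 tested) and *Kcnj15*, at under 1 RPKM, in GFP- cells (of 11 tested). The medians were 0.82 and 0.77, against -0.0024 and -0.02 over all genes. For age in GFP+ cells, 6575 of all 17213 genes tested had an unadjusted p below 0.05, and DESeq2 called 1904 higher and 1133 lower. These are the background for the GFP+ counts of the same kind below. None of the 7 tested cotransporters passed with edgeR in GFP+ cells (3 with an unadjusted p below 0.05, 1 with DESeq2), where the median was -0.46, and 2 rose in GFP- cells, among them *Slc12a4* (1.23), where the median was 0.60. *Slc12a7* was thus the cotransporter of the family that passed in GFP+ cells, and its relatives passed in GFP- cells, but the test of that difference passed for 0 of the 8 relatives with edgeR (3 with an unadjusted p below 0.05, 1 with DESeq2).

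Of 12 pump subunits and regulators, 4 rose with age in GFP+ cells, among them *Fxyd6* (3.01), *Fxyd3* (4.59, to 1.64 RPKM) and *Atp1b3*. *Fxyd3* was at 6.08 without P1 GFP+ replicate 1, and *Fxyd6* at 2.41 without P6 GFP+ replicate 2. In GFP- cells *Fxyd5* (2.35), *Atp1b3* (0.83) and *Atp1b2* (0.76) rose and 1 gene fell, of 13 tested. The list medians were 1.05 and 0.19. In GFP+ cells *Atp1b1* went from 67.6 ± 0.753 to 150 ± 5.30 RPKM (SD, n = 2).

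Of the WNK-SPAK pathway genes, none of 7 passed with edgeR in GFP+ cells (3 with an unadjusted p below 0.05, 2 with DESeq2), and *Wnk2* fell by 0.64 in GFP- cells (medians -0.14 and -0.04). Of the Kir4.1 scaffold genes, *Dtna* fell by 1.64 in GFP+ cells and *Aqp4* rose by 3.87 in GFP- cells, or by 4.52 without P1 GFP- replicate 2 (medians -0.27 and 0.07). Among the other potassium cycling genes, *Gjb6* rose in both fractions, by 1.86 in GFP+ and 1.25 in GFP- cells, and *Kcnn2*, a calcium-activated channel gene, rose by 1.11 in GFP- cells (medians 1.22 and 0.42). Per length, *Gjb6* reached 157 ± 29.8 RPKM in P6 GFP+ cells and *Gjb2* 459 ± 68.5 RPKM. Over all genes tested, 1.95% fell with age in GFP+ cells and 2.34% in GFP- cells. All of the calls in GFP+ cells with values here were lost without P1 GFP+ replicate 2. Over all genes, too, fewer were called without that library and, in GFP- cells, without either P6 GFP- replicate. These fits leave 1 library in a group. In GFP- cells 6 of 8 were lost without a P6 GFP- replicate, with adjusted p up to 0.0700 (*Kcnn2*), while *Slc12a4* and *Fxyd5* passed without each library.

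The genes whose levels followed each of the 4 most closely were found by Pearson's r of log2 CPM over the 8 libraries, among 10901 genes with a mean of at least 10 CPM. The points are 4 pairs of replicates, so these values describe the order of 4 groups and carry no p-value. *Kcnj10* was followed by *Acad11* (0.996), *Zswim1* (0.993), *Kcnj16* (0.992), *Ces1d* (0.990) and *Ano1* (0.990). *Kcnj16* was followed by *Fut2* (0.999), *Mgll* (0.995), *St6galnac2* (0.995), *Rab27b* (0.995) and *Gdf6* (0.994). *Kcnj10* and *Kcnj16* were thus close to each other, whereas *Slc12a7* stood at 0.875 with *Kcnj10* and 0.837 with *Kcnj16*. For *Slc12a7* the closest genes were *Nf2* (0.991), *Lad1* (0.990), *Epb4.1* (0.988), *Faah* (0.987) and *Gm16136* (0.987). *Atp1b1* was farther from the other 3, at 0.564 to 0.807, and its closest genes were *2410002O22Rik* (0.995), *Agfg2* (0.986), *Dnaja3* (0.977), *Narf* (0.971) and *Rspry1* (0.971).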

How the data were processed

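RNA-seq libraries of GFP+ and GFP- cochlear cells at P1 and P6 were used, 8 in all. For each Ensembl gene the authors deposited counts without normalization, made by aligning paired-end reads to mm9, with TopHat 1.4.0, HTSeq and DESeq 1.9.2 named in their processing notes. The counting mode is not given in the sources used here, and the library kit does not mark strand. Per the methods of the study, the libraries of freshly dissected cochleas held more cells than its limit for amplifying cDNA first. Rows that name no gene held 23.8% to 35.3% of listed reads and were left out of library sizes and tests.

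Groups were taken from the sample labels. Of 36536 genes, 34391 had a symbol and exon length in the NCBIM37 annotation. CPM and RPKM were computed from library totals over genes, and fold changes with TMM factors. The 4 libraries of each comparison entered 1 fit in edgeR 4.0.16 and R 4.3.3, using filterByExpr (at least 10 counts, 15 in total), the quasi-likelihood test and Benjamini-Hochberg adjustment over all genes tested, and a gene passed with p and adjusted p below 0.01. All 4 genes passed the filter in every comparison. The difference between the ages was the interaction of age and fraction over 8 libraries. The procedure was tested on simulated data. Sequences came from RefSeq (GRCm38.p6).

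Listed genes are named, up to 3 per list, direction and comparison, by the size of the change among those that passed with a mean of at least 1 RPKM in the higher group, and a few others, such as members of a count of 5 or fewer, were named after their values were seen. Some listed genes are counted but not reported here by name. *Wnk3* was not matched, and the *Wnk1* row with more counts was used. The 4 genes, the lists and the tests were chosen with earlier results of these data known. Alternatives were DESeq2 1.42.0 and its size factors, library totals, no filter, all 8 libraries, a replicate block and each library left out. Figures were drawn with matplotlib 3.10.9 in Python 3.11.15.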

Additional observations from a re-analysis of the deposited data

Results flagged for a closer look

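In 3 of the listed genes the ratio of GFP+ to GFP- cells differed between P6 and P1 by the interaction of age and fraction (edgeR's quasi-likelihood test over 8 libraries), which passed for 1.93% of the 19233 genes tested, and for 0 of *Kcnj10*, *Kcnj16*, *Slc12a7* and *Atp1b1* (3 with an unadjusted p below 0.05, 2 with DESeq2). Over all genes tested, 4085 had an unadjusted p below 0.05, and DESeq2 called 891 higher and 548 lower. *Aqp4*, the water channel gene, had a P6 ratio lower than its P1 ratio by a log2 of -4.38 (p-adj = 0.00254 by edgeR), at 3.35 ± 0.266 RPKM in P1 GFP+, 0.0994 ± 0.0492 in P1 GFP-, 2.23 ± 0.635 in P6 GFP+ and 1.32 ± 0.194 RPKM in P6 GFP- cells (SD, n = 2). *Dtna*, which encodes α-dystrobrevin, differed by -1.75 (p-adj = 0.00856 by edgeR), and fell from 16.3 ± 0.346 RPKM in P1 GFP+ to 4.92 ± 0.750 RPKM in P6 GFP+ cells. *Fxyd6* differed by 2.56 (p-adj = 0.00972 by edgeR), with 3.29 ± 0.110 RPKM in P1 GFP+ and 25.0 ± 12.6 RPKM in P6 GFP+ cells (2.56 became 1.95 without P6 GFP+ replicate 2). P6 GFP+ replicate 2 held more markers of other cell types than replicate 1, and their part was not tested. The *Dtna* and *Fxyd6* calls were lost with library totals, with the replicate block and without any 1 of 6 libraries, those of P1 and P6 GFP-, and the *Aqp4* call without any 1 of the P1 GFP+ and P6 GFP- libraries (adjusted p up to 0.0235).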

How the results depend on the processing

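Of the calls on *Kcnj10*, *Kcnj16*, *Slc12a7* and *Atp1b1*, settings other than leaving out a library kept call and direction in 24 of 24 fits for GFP+ over GFP- at P1, 24 of 24 at P6, 22 of 24 for P6 over P1 in GFP+ cells, 27 of 28 in GFP- cells and 16 of 20 for the difference of the ratios. The exceptions were *Slc12a7* with library totals (1.00) and *Atp1b1* with all 8 libraries (1.25) in GFP+ cells, which lost their calls, and *Atp1b1* without the filter in GFP- cells (0.77), which gained one. In the difference of the ratios, *Kcnj16* (1.18 with DESeq2 and 1.18 without the filter) and *Slc12a7* (1.34 and 1.33) gained calls, and the cause was not tested. Library totals moved the median log2 of all genes from -0.02 to -0.21 in GFP- cells between the ages and from 0.03 to 0.16 in the difference of the ratios.

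With 1 library left out, the log2 fold changes at P1 ranged from 0.99 to 1.52 for *Slc12a7* and from -0.43 to 0.96 for *Atp1b1*. At P6 they ranged from 2.16 to 2.47 for *Kcnj10*, 4.38 to 4.89 for *Kcnj16*, 2.49 to 2.71 for *Slc12a7* and 0.46 to 0.83 for *Atp1b1*. Between the ages in GFP+ cells they ranged from 1.82 to 2.07 for *Kcnj10*, 1.07 to 1.12 for *Slc12a7* and 1.17 to 1.31 for *Atp1b1*. In GFP- cells they ranged from 1.15 to 1.45 for *Kcnj10*, -0.49 to 0.017 for *Slc12a7* and 0.20 to 1.57 for *Atp1b1*, and the *Atp1b1* difference of the ratios from -0.29 to 1.04.

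Gene counts at p and adjusted p below 0.01 (higher, then lower) with 1 library left out were 1564 to 4642 and 2108 to 5412 at P1, against 3105 and 3867 with all libraries. At P6 they were 0 to 3428 and 0 to 4337, against 1413 and 950, and the 0 came without P6 GFP- replicate 2, where 5144 genes had an unadjusted p below 0.05. For age in GFP+ they were 80 to 3927 and 57 to 3604, against 493 and 335, in GFP- libraries 218 to 1826 and 31 to 1426, against 954 and 443, and in the difference of the ratios 13 to 1044 and 15 to 748, against 182 and 190. With all 8 libraries in the fit the counts were 2302 and 2855 at P6, 1542 and 819 for age in GFP+ and 540 and 229 in GFP- libraries. The DESeq2 test gave 2323 and 2568 at P6, 1904 and 1133 for age in GFP+, 1852 and 1198 in GFP- libraries and 891 and 548 for the difference of the ratios. Without the filter the counts were 2214 and 3095, 2449 and 1641, 2351 and 1642, and 1658 and 742 in the same order. Library totals changed the balance of higher and lower genes, to 1282 and 514 at P6, 564 and 575 for age in GFP- libraries, and 192 and 127 for the difference of the ratios.

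Replicate numbers 1 and 2 recur in every group, and the sources used here do not say whether they mark shared pools. Deviations of same-numbered libraries correlated across genes by 0.02 at P1, 0.09 at P6, -0.08 between the ages in GFP+ and -0.28 in GFP- cells. These correlations cannot show whether pools were shared, and the main fits did not pair samples by number. A replicate block gave 2821 and 3542 genes at P1, 1430 and 1407 at P6, 695 and 384 for age in GFP+, 741 and 299 in GFP- libraries, and 74 and 77 for the difference of the ratios, and it changed no call on the 4 genes. Crossed numbers in GFP- cells, tried after seeing the data, gave 1801 and 1262 genes with the block.

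Of 40 calls on named listed genes, 16 were lost in at least 1 other setting and 26 without at least 1 library, and all 40 kept their direction. Only 2 libraries in a group leave the spread poorly known, and of the 4 genes *Kcnj16* had the fewest counts, in P1 GFP- cells.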
